A study of Mus musculus with 6 samples.

Results

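The genes examined here were *Sp7* and *Tmem119* together with 8 genes that surround them in the bone-forming programme, namely *Runx1*, *Runx2*, *Alpl*, *Bmp4*, *Bmpr1a*, *Smad6*, *Dlx5* and *Msx1*. They were picked by symbol from a table of 20654 genes counted in cultured mouse muscle satellite cells (MuSCs), the resident stem cells of skeletal muscle. *Sp7* and *Tmem119* were included because they were already known to be higher in the libraries labelled *Piezo1* cKO, so their difference between the groups is given below as a description, with no p-value, and whether a fit called them is stated only as a count from which nothing is read. The question was whether they rose alone or together with other osteogenic genes. Of the 10 genes, 9 had counts, *Dlx5* was not analysed here, and 6 passed the filter on low counts that left 8551 genes for testing.

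*Piezo1* encodes a mechanosensitive cation channel. The control cells, labelled wild type, came from *Piezo1*+/+; *Pax7*CreERT2/+ mice and the *Piezo1* cKO cells from *Piezo1* flox/flox; *Pax7*CreERT2/+ mice, so both groups carried the tamoxifen-inducible Cre, which is driven from the MuSC gene *Pax7*. For ex vivo work the paper's methods describe daily tamoxifen injections of the mice, so the drug was first given before the cells were isolated. Cells positive for VCAM1 and negative for CD31, CD45 and Sca1 were sorted from limb muscle. They were cultured for 3 d in growth medium with 30% serum, 10 ng/mL bFGF and, in addition to the injections, 1 µM 4-hydroxytamoxifen. The age of the mice was not given in the sources used here. Each group had 3 libraries, whose total counts of unique molecular identifiers (UMIs, tags that mark single cDNA molecules) ran from 740936 to 931168 in the controls and from 726378 to 810096 in *Piezo1* cKO. A floor of 3 counts corresponded to 3.35 to 4.31 CPM (the count relative to the size of the library), which limited what could be seen of weakly expressed genes.

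In bone, BMP ligands such as BMP4 bind receptor kinases such as BMPR1A, which phosphorylate SMAD1 and SMAD5, and these enter the nucleus with SMAD4 and switch on genes such as *Id1*, *Smad6*, *Dlx5* and *Msx1*. RUNX2 is the master regulator of the osteoblast lineage, and SP7 (osterix) is a zinc-finger factor that acts after RUNX2 and is needed for osteoblasts to form. TMEM119 is a membrane protein known from osteoblasts, where it promotes differentiation, and from microglia, where it serves as a marker, while ALPL is the alkaline phosphatase that supplies phosphate for mineral. Myoblasts are known to turn towards an osteoblast-like state when they are exposed to BMP.

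The targeted gene was examined first, because it bears on the labels. *Piezo1* (GRCm38, chr8:122481698-122551329, minus strand) had counts of 11, 5 and 6 in the controls, against 7, 12 and 9 in *Piezo1* cKO. The means were 9.49 ± 5.53 CPM and 12.2 ± 3.50 CPM (SD, n = 3), normalised by the trimmed mean of M-values (TMM), and the ratio of the pooled counts was 1.35 with a 95% interval of 0.744 to 2.47 for counting error. The mean was thus not below that of the controls in the libraries that bear the cKO label, though the interval includes a lower level, and the gene did not pass the filter. Other genes overlap *Piezo1*, *Ctu2* on the opposite strand among them, and without the strand setting their reads cannot be told apart from its own. Counts over a whole gene do not tell whether the transcripts lack the deleted exons, so every direction given below rests on the labels, and each sign would be the opposite if the labels of the groups were exchanged. The study also assayed the deletion by RT-qPCR and by calcium imaging, which are not analysed here. From these assays the paper describes the deletion as effective in its cKO cells. They do not show which of the deposited libraries hold those cells.

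*Sp7* was the gene with the larger difference of the pair. It lies on chr15:102356606-102367182 (minus strand, GRCm38, GENCODE M21) and had 33, 17 and 31 counts in the controls and 56, 91 and 103 counts in *Piezo1* cKO. These correspond to 47.5, 19.0 and 36.6 CPM in the controls and to 71.0, 120.2 and 136.5 CPM in *Piezo1* cKO. The groups did not overlap, with the second control library lowest and the third *Piezo1* cKO library highest. The means were 34.3 ± 14.4 CPM and 109.2 ± 34.1 CPM (SD, n = 3), a log2 fold change of 1.70 with a standard error of 0.27 in the edgeR fit. When each library was left out in turn, the log2 fold change of *Sp7* lay between 1.39, without control replicate 2, and 1.98, without control replicate 1.

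*Tmem119*, on chr5:113793729-113800516 (minus strand), had 68, 43 and 81 counts in the controls and 114, 147 and 133 counts in *Piezo1* cKO. In CPM these were 97.8, 48.0 and 95.6 in the controls and 144.5, 194 and 176 in *Piezo1* cKO. Here too the second control library was the lowest of the 6 and the groups did not overlap. The means were 80.5 ± 28.2 CPM and 172 ± 25.1 CPM (SD, n = 3), and the log2 fold change was 1.11 with a standard error of 0.19. Leaving out single libraries gave *Tmem119* log2 fold changes of 0.83, without control replicate 2, to 1.27. In a bulk measurement such as this, a larger share of cells with a transcript and more of it per cell cannot be told apart, for *Sp7* and *Tmem119* as for every gene below.

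Over all 8551 genes, the quasi-likelihood test of edgeR, adjusted by Benjamini and Hochberg's method, called 67 genes at 0.05 (0.784%), of which 40 were higher (0.468%) and 27 lower (0.316%) in *Piezo1* cKO. With scaling to total counts alone, 49 calls were higher and 18 lower, which put 73.1% of them on the higher side in place of 59.7%. Of the 6 osteogenic and BMP genes tested, 2 were among the calls, *Sp7* and *Tmem119*, and since both were picked for this contrast nothing is read from that count. DESeq2 called 0.674% of the 4007 genes to which it gave an adjusted p, limma-voom 0.842% and cyclic loess normalisation with limma 0.772%. Without *Piezo1* cKO replicate 2, edgeR called 6 genes in all, *Sp7* and *Tmem119* not among them.

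**Figure D1:**
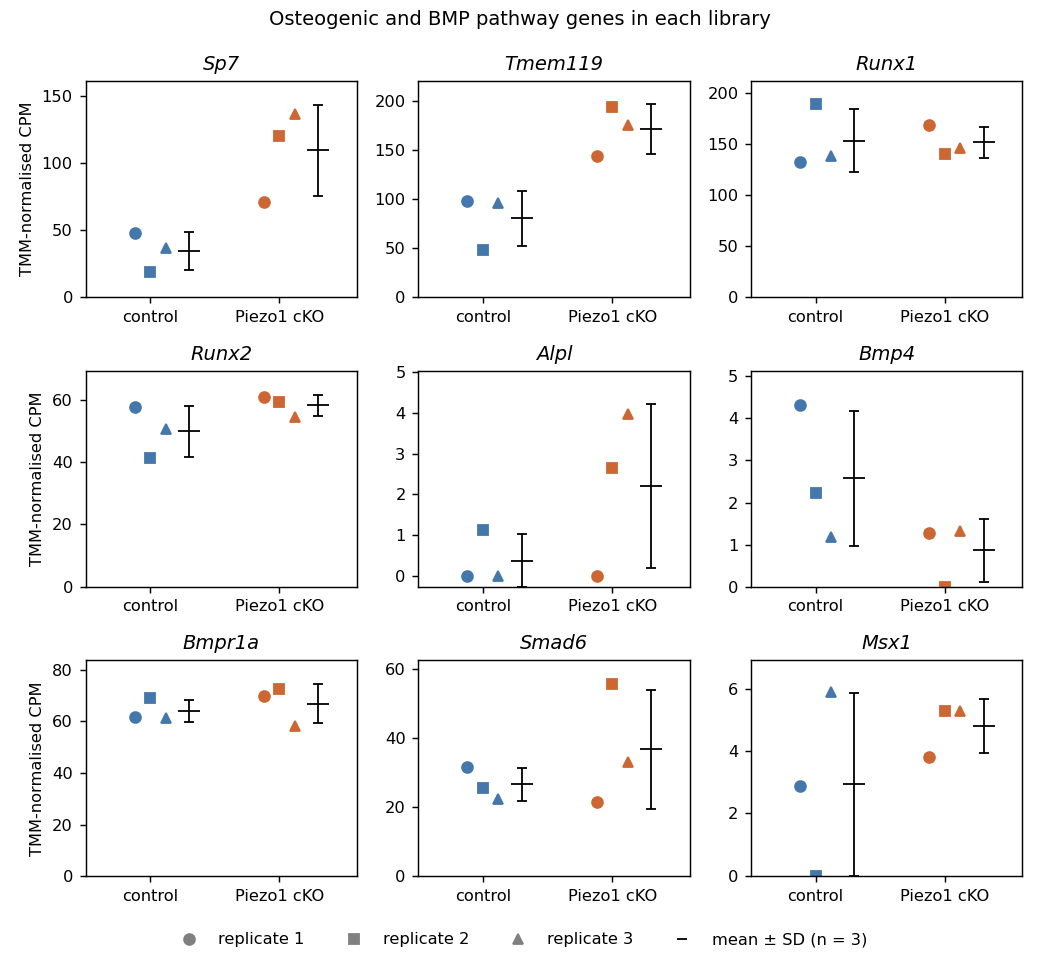
TMM-normalised CPM (vertical axis, 1 scale per gene) of the 9 genes with counts, by group, with 1 point per library, the marker shape giving the replicate number, and bars for the mean ± SD (n = 3). *Sp7* and *Tmem119* are the only genes among the 9 whose *Piezo1* cKO libraries all lie above all control libraries, as did 8.2% of all genes tested. Both were picked for this contrast, so nothing is read from that. *Alpl*, *Bmp4* and *Msx1* stay below 6 CPM.

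The RUNX factors, which act before SP7 in the bone lineage, had smaller fold changes, and their groups overlapped. *Runx2* (chr17:44495987-44814797, minus strand) stood at 57.5, 41.3 and 50.8 CPM in the controls and at 60.8, 59.4 and 54.3 CPM in *Piezo1* cKO. The groups of *Runx2* overlapped, and its log2 fold change was 0.24 with a standard error of 0.22. *Runx1* (chr16:92601466-92826149, minus strand), a relative of *Runx2* best known from blood formation, stood at 132, 189 and 138 CPM in the controls and at 169, 140 and 146 CPM in *Piezo1* cKO. Its highest value was in a control library, and its log2 fold change was -0.02 with a standard error of 0.15, a value that turned to 0.05 with total counts. Antisense genes overlap *Runx1* and *Runx2*, and since the strand setting of the counting was not given in the sources used here, reads of the overlapping genes cannot be told apart from theirs.

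Among the BMP genes, the ligand *Bmp4* (chr14:46383520-46390669, minus strand) had 3, 2 and 1 counts in the controls and 1, 0 and 1 counts in *Piezo1* cKO. These counts were at or under the floor in every library, and the ratio of the pooled counts, 0.353, had a 95% interval of 0.0349 to 1.98. A difference in *Bmp4* was therefore not detectable at this depth. The receptor *Bmpr1a* (chr14:34410734-34503341, minus strand) was at 61.8, 69.2 and 61.4 CPM in the controls and at 69.7, 72.6 and 58.3 CPM in *Piezo1* cKO. The groups overlapped, and the log2 fold change of *Bmpr1a* was 0.06 with a standard error of 0.20. Both genes are overlapped by genes on the other strand.

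*Smad6*, the inhibitory Smad that BMP signalling induces and that in turn restrains it, lies on chr9:63953076-64022059 (minus strand). It stood at 31.6, 25.7 and 22.4 CPM in the controls and at 21.5, 55.5 and 33.1 CPM in *Piezo1* cKO. The *Piezo1* cKO libraries held both the lowest and the highest value, the second being far above the other 2. The log2 fold change of *Smad6* was 0.47 with a standard error of 0.29, and it was 0.05 without *Piezo1* cKO replicate 2 and 0.74 without *Piezo1* cKO replicate 1.

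The remaining genes were near or under the floor. *Alpl* (chr4:137741733-137796384, minus strand), the enzyme by which osteoblasts are usually stained, had 0, 1 and 0 counts in the controls and 0, 2 and 3 counts in *Piezo1* cKO, with a pooled ratio of 5.30 and a 95% interval of 0.593 to 251. The homeobox gene *Msx1* (chr5:37820485-37824583, minus strand) had 2, 0 and 5 counts in the controls and 3, 4 and 4 counts in *Piezo1* cKO, with a pooled ratio of 1.67 and a 95% interval of 0.590 to 5.07. Both intervals cover counting error only and include 1, so no difference was detectable in either gene.

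The sequences around the start sites were read from RefSeq promoter windows (GRCm38.p6, 250 bases before to 50 after each start), of which 9 windows matched 7 of the 10 genes. *Sp7*, *Tmem119* and *Dlx5* were not matched. 4 short motifs were searched for on both strands, namely TGTGGT, read by RUNX proteins, GGGCGG, read by Sp factors, TAATTA, read by DLX and MSX homeodomains, and GTCTAG, read by Smads. TGTGGT was held by 2 of the 9 windows (16.8% of all 32851 windows), GGGCGG by 5 (35.7%), TAATTA by 0 (5.29%) and GTCTAG by 1 (8.37%). The 3 windows with a RUNX or a Smad motif are shown as 30-base stretches on the minus strand of the genome, because they belong to the *Runx* genes and to the BMP-induced *Smad6*, with the motif letters in capitals (ACCACA is TGTGGT on the other strand, and in GTCTAGAC the matches on both strands overlap).
Runx2 (chr17:44814585-44814614): ctcacaaacaACCACAgaACCACAagtgcg
Runx1 (chr16:92826027-92826056): ctcataaacaACCACAgaACCACAagttgg
Smad6 (chr9:64022050-64022079): gcggagccgccaaagtGTCTAGACtggcat
The stretches of *Runx2* and *Runx1* are identical at 27 of 30 bases and carry the motif as the same pair. A match describes the letters of the window and is not a binding site.

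The wider programme was examined in 11 lists of osteoblast and BMP pathway genes, which name 136 genes, of which 113 had counts and 50 passed the filter. None of the 50 was called by edgeR at an adjusted p of 0.05 (0.784% of all genes), and DESeq2 (25 genes with an adjusted p, 0.674% of all genes), limma-voom (50 genes, 0.842%) and cyclic loess (50 genes, 0.772%) also called 0. At such shares a count of 0 among 50 genes is near the background. At an unadjusted p under 0.05 in edgeR there were 13 of the 50, 10 higher and 3 lower. This is a larger share than the 11.9% of all genes that passed, and the difference between the shares was not tested. The median log2 fold change of the 50 genes was 0.04, against 0.002 over all genes, with 27 genes above 0 and 23 below. The groups did not overlap for 6 genes higher in *Piezo1* cKO and for 1 lower, against 8.2% and 8.31% of all genes. The adjusted p-values that follow are from the same edgeR fit.

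In the list of bone matrix and mineralisation genes, 9 of 23 were tested, 6 above 0 and 3 below, with a median log2 fold change of 0.20, which was -0.01 without *Piezo1* cKO replicate 2 and -0.08 with no filter on low counts. *Fam20c*, the kinase that phosphorylates secreted matrix proteins, was at 111, 68.0 and 118 CPM in the controls and at 128, 162 and 163 CPM in *Piezo1* cKO. Its groups did not overlap, and its log2 fold change of 0.62 (SE 0.17) stood just outside the threshold, with an adjusted p of 0.0561. It was past the threshold in 4 of 9 other settings and in 3 of 6 fits that left out a library, over which its adjusted p ran from 0.0055 to 0.449. *Col1a2*, which encodes a chain of type I collagen, had 33.1, 36.8 and 74.4 CPM in the controls and 76.0, 72.6 and 115 CPM in *Piezo1* cKO. The third control library overlapped the *Piezo1* cKO libraries, and the log2 fold change of *Col1a2* was 0.85 (SE 0.25) with an adjusted p of 0.125, ranging from 0.000555 to 0.464 over the alternatives, of which 3 of 9 settings and 2 of 6 leave-one-out fits called it.

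The other abundant genes of the matrix list lay on both sides of 0. *Ank*, a transporter linked to pyrophosphate, which holds back mineral, had a log2 fold change of 0.44 (adjusted p = 0.162). *Spp1* (osteopontin), the most abundant gene of the list, stood at -0.21 (adjusted p = 0.670), and *Sparc* (osteonectin) at -0.27 (adjusted p = 0.438). The *Spp1* value turned to 0.15 with cyclic loess normalisation.

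Of 15 further osteoblast transcription factors, 7 were tested and their median log2 fold change was 0.004. *Cbfb*, the partner that RUNX proteins need to bind DNA, was at 116, 132 and 117 CPM in the controls and at 142, 164 and 164 CPM in *Piezo1* cKO. Its groups did not overlap, but its log2 fold change of 0.36 had an adjusted p of 0.301. *Nfatc1*, a calcium-regulated factor, was at 4.31, 14.5 and 20.1 CPM in the controls and at 21.5, 29.1 and 27.8 CPM in *Piezo1* cKO, with a log2 fold change of 0.95 and an adjusted p of 0.203. *Atf4*, which osteoblasts use for amino acid supply, had a log2 fold change of -0.32 (adjusted p = 0.308) and the cartilage factor *Sox9* one of -0.22 (adjusted p = 0.573). Of the other members of the Sp family, *Sp1* and *Sp3* were tested, at -0.19 and -0.14. Below the filter, the homeobox gene *Dlx3* (named after its values were seen) had 0, 0 and 2 counts in the controls and 2, 5 and 3 in *Piezo1* cKO, with a pooled ratio of 5.30 and a 95% interval of 1.13 to 49.7 for counting error.

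The BMP pathway was followed from ligand to target. None of the 12 other ligands listed passed the filter, and the 6 with counts had at most 3 in any library. Of the secreted antagonists, *Fst* (follistatin), which also binds activin and myostatin, stood at 5.75, 13.4 and 18.9 CPM in the controls and at 15.2, 40.9 and 23.9 CPM in *Piezo1* cKO. The groups of *Fst* overlapped, and its log2 fold change of 1.02 had an adjusted p of 0.191. Below the filter, the antagonist *Chrdl2* (named after its values were seen) had 4, 10 and 8 counts in the controls and 4, 3 and 1 in *Piezo1* cKO, with a pooled ratio of 0.385 and a 95% interval of 0.148 to 0.899 for counting error. *Grem1*, *Nbl1* and *Twsg1*, which also bind BMPs outside the cell, had log2 fold changes of 0.31, -0.09 and -0.03.

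The tested receptors and Smads had values on both sides of 0. Below the filter, the type I receptor *Bmpr1b* (named after its values were seen) had 5, 3 and 3 counts in the controls and 11, 6 and 7 in *Piezo1* cKO, with a pooled ratio of 2.31 and a 95% interval of 1.09 to 5.23 for counting error. The type I receptor *Acvr1* stood at 0.07, the type II receptors *Bmpr2* and *Acvr2a* at 0.31 and -0.25, and the co-receptor *Rgmb* at -0.11 on the log2 scale, and their median of -0.02 was near that of all genes. Among 11 Smads and regulators tested, with a median of -0.06, *Smad4*, the shared partner of the signalling Smads, had a log2 fold change of -0.06 and the Smad co-repressor *Skil* one of -0.11. *Tob1*, which represses BMP signalling in osteoblasts, was at 139, 95.9 and 146 CPM in the controls and at 152, 185 and 170 CPM in *Piezo1* cKO, with a log2 fold change of 0.41 and an adjusted p of 0.215. *Ski*, a co-repressor of Smads, was the 1 tested gene of the lists that lay lower in *Piezo1* cKO without overlap, at 23.0, 20.1 and 30.7 CPM in the controls and 13.9, 11.9 and 15.9 CPM in *Piezo1* cKO, with a log2 fold change of -0.82 and an adjusted p of 0.293.

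The target genes of BMP signalling were read as RNA levels, and the activity of the pathway itself was not measured. Of 7 listed, 6 were tested, 4 above 0 and 2 below, with a median log2 fold change of 0.17. *Id1*, which is among the most direct targets, was at 431, 355 and 374 CPM in the controls and at 418, 351 and 396 CPM in *Piezo1* cKO. Its log2 fold change was 0.01 with a standard error of 0.13, and its groups overlapped. *Id2* and *Id3*, inhibitors of the same kind, stood at -0.19 (adjusted p = 0.620) and -0.11 (adjusted p = 0.848), and *Atoh8* at 0.34 (adjusted p = 0.399). *Hey1*, a target that Notch signalling also drives, had 8, 6 and 2 counts in the controls and 11, 23 and 11 counts in *Piezo1* cKO. The groups of *Hey1* did not overlap, and its log2 fold change of 1.55 (SE 0.45) had an adjusted p of 0.0817, with 0 of 7 other settings and 2 of 6 leave-one-out fits calling it.

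Outside the BMP pathway, 5 of 17 genes of the Wnt pathway in bone were tested. Their median of 0.41 was the highest of the pathway lists with tested genes. *Lrp4*, a co-receptor that binds the Wnt inhibitor sclerostin, was at 10.1, 4.46 and 7.08 CPM in the controls and at 17.7, 13.2 and 14.6 CPM in *Piezo1* cKO, with a log2 fold change of 1.103 and an adjusted p of 0.276. *Lef1* and *Tcf7*, the nuclear factors of the pathway, stood at 0.63 (adjusted p = 0.585) and 0.28, the co-receptor *Lrp6* at 0.41 and *Ctnnb1* (β-catenin) at -0.07. Of the list of hedgehog, PTH and vitamin D receptors and their partners, *Smo* and *Gli3* were tested, at 0.09 and 0.11. Of 9 chondrocyte markers none passed the filter, and *Matn1* was at 0 in all libraries.

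**Figure D2:**
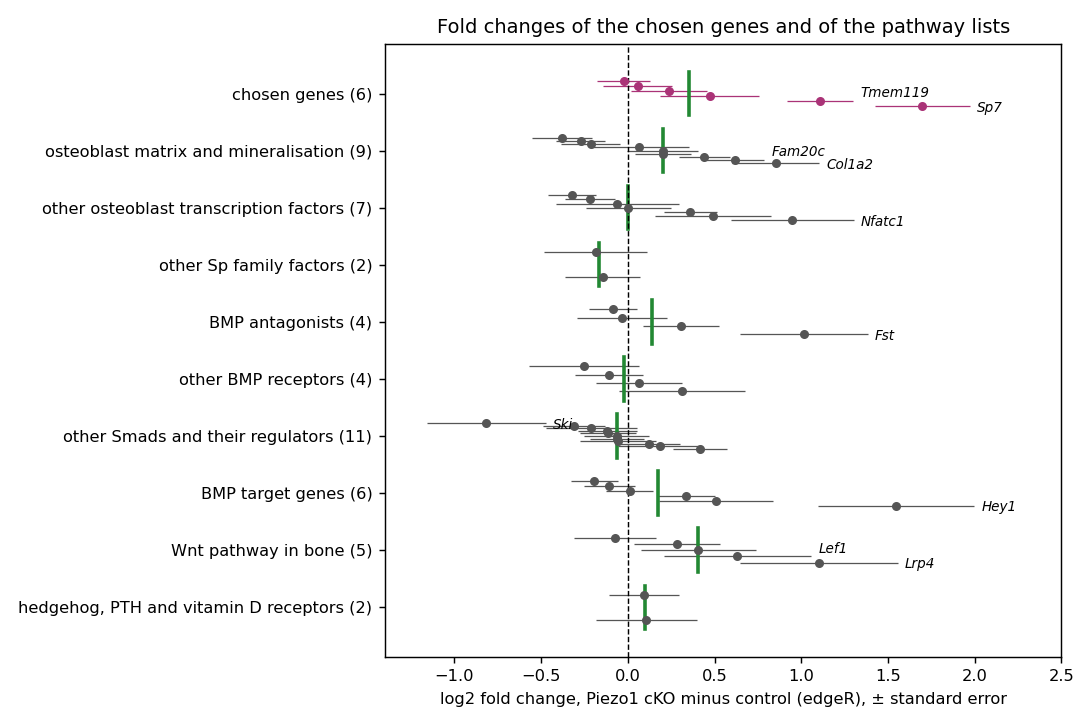
Log2 fold change with standard error (horizontal axis, *Piezo1* cKO minus control, edgeR) of the 6 tested osteogenic and BMP genes (top row) and of the 50 tested genes of the pathway lists, 1 point per gene, with the number tested in parentheses, the list's median as a green bar and the median of all genes as a dashed line. In this fit *Sp7* at 1.70 lies to the right of every listed gene, and *Hey1* at 1.55 is the nearest to it. *Sp7* was picked for this contrast, so nothing is read from its place. *Hey1* was above *Sp7* without control replicate 1 (2.062 against 1.979), control replicate 2 (1.567 against 1.39) or *Piezo1* cKO replicate 3 (1.713 against 1.498). *Sp7* stayed above *Hey1* without control replicate 3, *Piezo1* cKO replicate 1 or *Piezo1* cKO replicate 2.

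The summed level of the osteoblast defining markers overlapped between the groups. It was 33.1, 39.0 and 79.1 CPM in the controls and 49.4, 67.4 and 45.1 CPM in *Piezo1* cKO, and most of it came from *Dmp1*, the only one of the 7 that passed the filter, with a log2 fold change of 0.07. The osteocalcin genes, whose near-identical copies could share reads, had 1, 0 and 4 counts for *Bglap* and 3, 4 and 10 for *Bglap2* in the controls, and 6, 2 and 2 for *Bglap* and 4, 17 and 7 for *Bglap2* in *Piezo1* cKO. *Col1a1* had 1, 7 and 17 counts in the controls and 8, 3 and 2 in *Piezo1* cKO, *Phex* and *Ifitm5* had at most 3 counts in any library, and *Ibsp* was not analysed here.

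The labelled cell type was checked against its markers. All 10 myogenic markers passed the filter, with *Chrna1* the most abundant, and their summed level was 4757, 3885 and 4496 CPM in the controls and 4574, 3533 and 4235 CPM in *Piezo1* cKO. edgeR called 0 of them (0.784% of all genes), with 3 at an unadjusted p under 0.05 (11.9% of all genes), in both directions. These were *Vcam1*, the marker by which the cells were sorted, at a log2 fold change of -0.45 (edgeR adjusted p = 0.185), and the adhesion molecule *Cdh15* at 0.53 (edgeR adjusted p = 0.118) and *Megf10* at 0.50 (edgeR adjusted p = 0.396), all 3 named after their values were seen.

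Markers of other cells of muscle were read beside these genes. The fibroblast list summed to 480, 567 and 736 CPM in the controls and 536, 622 and 591 CPM in *Piezo1* cKO, with *Gsn*, which muscle cells also express, the most abundant gene, the fibroblast collagen *Col3a1* next to it, and *Pi16* at 0 in all libraries. Of its 4 tested genes 1 was called (0.784% of all genes), the matrix proteoglycan *Dcn* (named after its values were seen), which fell from 18, 23 and 37 counts in the controls to 8, 5 and 3 counts in *Piezo1* cKO, with a log2 fold change of -2.17 (SE 0.38, edgeR adjusted p = 0.000387). The other members, named for the same reason, lay on both sides. *Cd34* had 53, 172 and 91 counts in the controls and 39, 23 and 35 in *Piezo1* cKO, with no overlap and a log2 fold change of -1.59 (edgeR adjusted p = 0.181), and *Pdgfra* had 15 pooled counts in the controls and 5 in *Piezo1* cKO. In the other direction, *Ly6a*, which encodes the Sca1 used to exclude cells in the sort, had 2, 2 and 3 counts in the controls and 5, 8 and 9 in *Piezo1* cKO, with a pooled ratio of 3.33 and a 95% interval of 1.37 to 9.23 for counting error. *Col3a1* had a log2 fold change of 0.41 (edgeR adjusted p = 0.265).

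The pericyte and smooth muscle list summed to 250, 114 and 488 CPM in the controls and 421, 580 and 439 CPM in *Piezo1* cKO, mostly from *Acta2*, and like *Sp7* and *Tmem119* it was lowest in the second control library and edgeR called 0 of its 2 tested genes (0.784% of all genes), with 1 at an unadjusted p under 0.05 (11.9% of all genes). *Cspg4* was that gene, at 40.3, 27.9 and 29.5 CPM in the controls and 49.4, 42.3 and 71.6 CPM in *Piezo1* cKO, with a log2 fold change of 0.76 (edgeR adjusted p = 0.143). *Cspg4* was also the 1 of the 2 tested genes that was higher in *Piezo1* cKO without overlap (8.2% of the genes tested). Below the filter, *Rgs5* (1 pooled count in the controls and 12 in *Piezo1* cKO) and *Mcam* (10 and 20) were higher without overlap. *Notch3* had 14 and 29 pooled counts with overlapping groups, *Pdgfrb* 16 and 12, and *Myh11* 0 and 1. The tenocyte list summed to 147 to 239 CPM in the controls and 215 to 239 CPM in *Piezo1* cKO, mostly from *Scx*, and its other tested gene *Mkx* had 2, 10 and 3 counts in the controls and 11, 11 and 11 in *Piezo1* cKO, with no overlap and a log2 fold change of 1.21 (edgeR adjusted p = 0.256). The part of these lists and of the fibroblast list in the values of *Sp7* and *Tmem119* was not tested.

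Markers of the blood and endothelial cells removed in the sort were also read, and the blood list includes microglial genes because *Tmem119* is a marker of microglia. The haematopoietic and myeloid list summed to 10.1, 29.0 and 14.2 CPM in the controls and 11.4, 14.5 and 10.6 CPM in *Piezo1* cKO, mostly from *Cd68*, and *Lyz2* had 11 counts in the second control library. *Ptprc* (CD45), *Adgre1* and *Cd74* were not analysed here, and the part of this list in the *Tmem119* values was not tested. *P2ry12*, a further microglial gene, had 1 count in a control library and 0 in *Piezo1* cKO, and *Cx3cr1* had 1 count in each group. *Csf1r* had 2, 1 and 1 counts in the controls and 0 in each *Piezo1* cKO library, all under the floor. The endothelial list lay between 8.27 and 22.5 CPM, with *Tek* the most abundant gene over the 6 libraries, and the Schwann cell list between 2.64 and 12.9 CPM, with *Mbp* the most abundant.

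**Figure D3:**
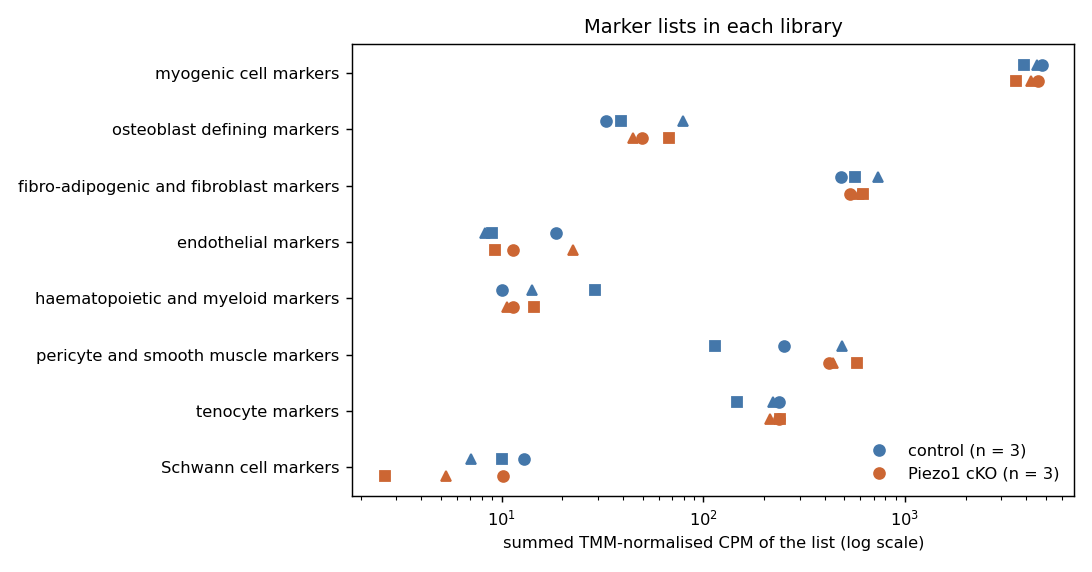
Summed TMM-normalised CPM of each marker list (horizontal axis, log scale), with 1 point per library, controls above and *Piezo1* cKO below in each row, and the marker shape giving the replicate number. The myogenic list, at 3533 to 4757 CPM, lies above all others in every library, while the osteoblast list stays between 33.1 and 79.1 CPM with overlapping groups.

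Finally, the genes whose pattern over the 6 libraries was most like that of *Sp7* or *Tmem119* were listed, by the root mean square difference between log2 CPM profiles that were each centred on their own mean. The measure holds the difference between the groups by which *Sp7* and *Tmem119* were picked, so these genes are a description, with no test, and the 6 libraries are shared by all of them. Nearest to *Sp7* were the lincRNA *Gm28653* (ENSMUSG00000099906, chr1:20669882-20684298, plus strand) at 0.17, *Dynap* at 0.17, *Igfbp2* at 0.25, *Synpo2l* at 0.27 and *Cavin4* at 0.28. *Tmem119* itself ranked 9 from *Sp7*, at 0.33. *Smad6* ranked 849 and *Runx2* 1215, with differences of 0.77 and 0.81, *Bmpr1a* ranked 4112 and *Runx1* 6072.

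*Gm28653* spans the genes of the muscle microRNAs miR-206 (*Mir206*, chr1:20679010-20679082) and miR-133b (*Mir133b*, chr1:20682769-20682887) on the same strand, and it had 9, 4 and 6 counts in the controls and 16, 22 and 24 counts in *Piezo1* cKO. *Cavin4*, which encodes a muscle protein of caveolae, stood at 48.9, 13.4 and 40.1 CPM in the controls and at 62.1, 124.1 and 87.5 CPM in *Piezo1* cKO. *Synpo2l*, which encodes an actin-associated protein of striated muscle, was near both *Sp7* and *Tmem119*, at 38.8, 16.7 and 40.1 CPM in the controls and 52.0, 83.2 and 82.2 CPM in *Piezo1* cKO. As with *Sp7*, the second control library held the lowest value of each.

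Nearest to *Tmem119* were *Shisa2* at 0.09, *Synpo2l* at 0.12, *Igfbp2* at 0.14, *Cited1* at 0.15 and *Lrrn1* at 0.16. *Shisa2*, which encodes an inhibitor of WNT and FGF receptor maturation, stood at 41.7, 20.1 and 43.7 CPM in the controls and at 71.0, 96.4 and 72.9 CPM in *Piezo1* cKO. *Igfbp2*, which encodes a binding protein of insulin-like growth factors, stood at 66.2, 27.9 and 54.3 CPM in the controls and at 81.1, 142.6 and 119.3 CPM in *Piezo1* cKO. All 5 neighbours of each gene were also its 5 nearest when the counts were scaled to total counts alone.

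**Figure D4:**
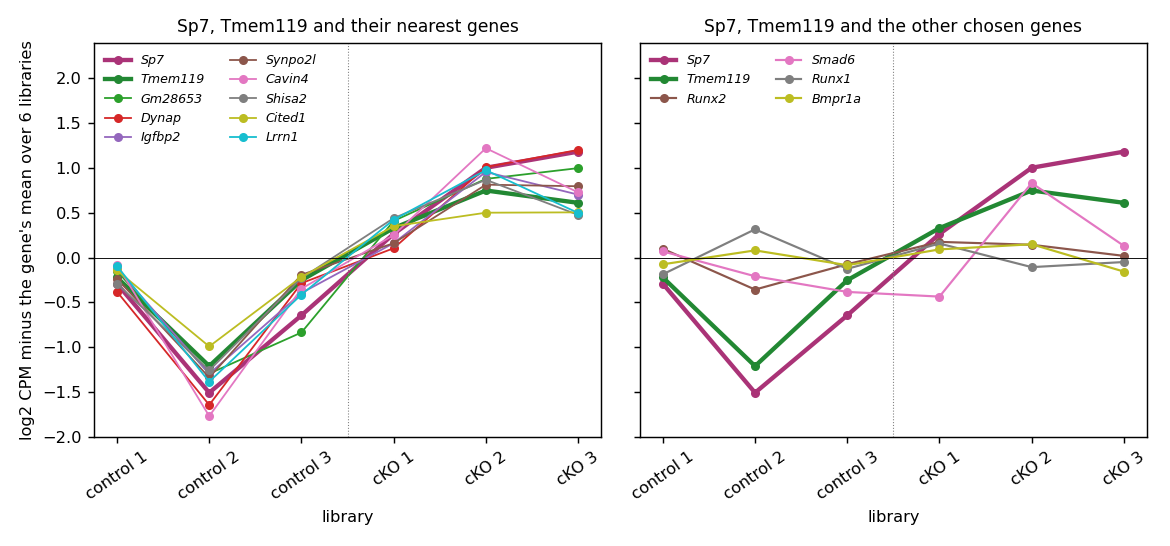
Log2 CPM minus the gene's own mean over the 6 libraries (vertical axis) in each library, for *Sp7*, *Tmem119* and their nearest genes (left) and for *Sp7*, *Tmem119* and the other tested genes of the osteogenic and BMP group (right). On the left every line is lowest in control library 2 and above 0 in all *Piezo1* cKO libraries, and on the right *Runx2* has the same lowest library with a smaller range, while the lowest library of *Runx1*, *Smad6* and *Bmpr1a* is another one.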

How the data were processed

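Total RNA from sorted MuSCs cultured for 3 d was sequenced in 6 libraries. The authors reverse transcribed 500 pg of RNA with barcoded primers, ran 12 PCR cycles on the cDNA, mapped the reads to GRCm38 with STAR 2.7.9a, assigned them with featureCounts 2.0.1 and counted UMIs with UMI-tools 1.1.1, as their methods and the submitters' processing notes state. The deposited values are raw counts per gene, not normalised. Settings for strand and for reads mapping to several places were not given in the sources used here. Groups were taken from the sample labels, which number the libraries without saying that they came from separate mice, so p-values measure only the spread between these libraries, which may be technical. The libraries of a group differed by more than sampling noise (chi-square per degree of freedom 1.64 to 2.61).

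Counts were analysed in R 4.3.3 with edgeR 4.0.16 (TMM factors, filterByExpr with a minimum count of 10, robust quasi-likelihood F test), with Benjamini-Hochberg adjustment over all genes tested and a threshold of 0.05. DESeq2 1.42.0, limma 3.58.1 (voom, cyclic loess), other scalings and filters, the replicate block and leaving out each library were alternatives. The fitting was tested on simulated data, whose outcome is not reported here and from which nothing is read. Ratios of pooled counts have exact 95% binomial intervals, which cover counting error only. Log2 CPM profiles used a prior count of 2. The genes, lists and tests were chosen with earlier results of these data known. Genes were named from a list if called, if among the 3 with the highest mean CPM or the 2 with the smallest unadjusted p of the list, and if nearest in pattern; of each marker list the most abundant gene and those at 0 were named, except for 1 item that is not reported here. Counts of other osteoblast, fibroblast, smooth muscle and myeloid markers were named after their values were seen.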

Additional observations from a re-analysis of the deposited data

How the results depend on the processing

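The number of genes called, 67 in edgeR, was 27 (12 higher, 15 lower) in DESeq2 and 129 (82 higher, 47 lower) with no filter on low counts. The paper, which also used DESeq2, gives 15 genes up and 12 down, the reverse of the split found here. Why the sides differ was not tested, and the directions given here rest on the labels. Cyclic loess without a trend in the variance, which was chosen after seeing the data, called 0 genes. With 1 library left out the calls ran from 6 to 174 in all, from 4 to 101 higher and from 2 to 73 lower, and 0 of the chosen genes were called without *Piezo1* cKO replicate 2 and 2 in each other such fit, a count from which nothing is read because these 2 were picked for this contrast. The calls were 105 without control replicate 1, 131 without control replicate 3, 174 without *Piezo1* cKO replicate 1, 6 without *Piezo1* cKO replicate 2 and 29 without *Piezo1* cKO replicate 3. The cause of these changes was not tested.

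Of the pathway lists, 1 of 50 genes was called with DESeq2 size factors (72 of 8551 over all genes) and 1 of 50 with total counts (67 of 8551), *Fam20c* in both. It was 2 of 111 with no filter (129 of 19247) and 2 of 41 with at least 10 counts in every library (92 of 7510), *Fam20c* and *Col1a2* in both. With a library left out, 0 to 5 were called. Without *Piezo1* cKO replicate 1 it was 5 of 52 (174 of 8795), namely *Ank*, *Col1a2*, *Fam20c*, *Fst* and *Hey1*. Without control replicate 1 it was 3 of 54 (105 of 8976), and without control replicate 3 it was 2 of 51 (131 of 8834). It was 0 of 52 without control replicate 2 (75 of 8839), *Piezo1* cKO replicate 2 (6 of 8812) or *Piezo1* cKO replicate 3 (29 of 8921). The median log2 fold change of the lists was -0.077 in DESeq2, 0.12 with total counts, 0.12 with no filter, -0.042 with at least 10 counts in every library, and -0.018 to 0.11 with a library left out. With a library left out, the median ran from -0.01 to 0.23 for the matrix genes, -0.12 to 0.22 for the transcription factors, -0.19 to 0.26 for the receptors, -0.13 to -0.05 for the Smads and 0.22 to 0.69 for the Wnt genes. With total counts the median of all genes moved to 0.08. With the replicate block edgeR called 46 of 8551 genes, 26 of them higher, and 1 of 50 pathway genes, *Col1a2*. The labels do not say that the replicate numbers pair the libraries, and no pairing was seen. The correlations of same-numbered libraries were -0.143, -0.203 and 0.0121, and 0 of 3 libraries in either group were closest to their own number. With 3 libraries per group this check cannot exclude a pairing.

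Besides *Sp7* and *Tmem119*, 40 genes were followed across the alternatives. Small log2 fold changes turned sign in 15 of them, 2 of these among the chosen genes. The other tested genes of the lists were not followed. *Runx1* was 0.028 with cyclic loess and 0.052 with total counts and ran from -0.11 to 0.17 with a library left out, and *Bmpr1a* ran from -0.0060 to 0.14 with a library left out. With cyclic loess, with or without the trend, the listed genes that turned were *Spp1* (0.15), *Id3* (0.11) and *Acvr1* (-0.023), with total counts *Twsg1* (0.045), *Smad4* (0.012) and *Ctnnb1* (0.0036), and with DESeq2 *Id1* (-0.0037). With a library left out the values ran from -0.28 to 0.076 for *Sp3*, -0.37 to 0.032 for *Sp1*, -0.20 to 0.0035 for *Nbl1*, -0.17 to 0.11 for *Twsg1*, -0.19 to 0.26 for *Acvr1*, -0.26 to 0.018 for *Skil*, -0.24 to 0.036 for *Id3*, -0.050 to 0.096 for *Id1*, -0.15 to 0.023 for *Ctnnb1*, -0.15 to 0.47 for *Smo* and -0.13 to 0.24 for *Gli3*. The depth of 726378 to 931168 counts per library left *Alpl*, *Bmp4* and *Msx1* at or near the floor of 3 counts.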
